A study of Mus musculus with 12 samples.

Results

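The genes described here are the Wnt ligands, their Frizzled receptors and the secreted Wnt inhibitors of mouse ESCs. They were taken by symbol: every gene on the array whose symbol starts with *Wnt*, *Fzd*, *Dkk* or *Sfrp* followed by a digit, plus *Frzb* and *Wif1*. This gave 40 of the 18194 genes with a probe set of their own, namely 19 Wnt ligands, 10 Frizzled receptors, 4 Dickkopf genes, the 6 genes *Sfrp1*, *Sfrp2*, *Sfrp4*, *Sfrp5*, *Frzb* and *Wif1*, and *Fzd10os*, a transcript from the strand opposite *Fzd10* that the symbol rule takes in and that is not a receptor. Of these, 39 passed the filter on low signals (a highest signal above 3.94 on the log2 scale in at least 1 array), as did 16432 of all genes. The single probe set of *Wnt3* did not pass.

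RNA was measured on 12 Affymetrix arrays from 6 ESC lines, each with 1 array before and 1 array after 4-hydroxytamoxifen (OHT). All lines are *Ring1A-/-; Ring1B fl/fl; Rosa26::CreERT2* ESCs from a 129/B6 hybrid strain background, so that every group lacks Ring1A, and OHT (800 nM for 24 h) activates the Cre recombinase that deletes the endogenous *Ring1B*. The mock line carries an empty vector, 2 lines express WT Ring1B (#1 and #3), 2 lines express Ring1B (I53S) (#1 and #4) and 1 line expresses Ring1B (I53A) (#1). The substitutions lie in the surface of Ring1B that binds the E2 enzyme, and these 3 lines with a substitution are grouped below as mutant lines. Arrays after OHT were taken on day 2, and the constructs are stably expressed Flag-tagged transgenes under the CAG promoter. The cells grew on irradiated fibroblast feeders or on gelatin, and the sources used here do not say which array had which. The comparisons address what loss of both Ring1 proteins does to RNA levels of Wnt pathway genes, and whether WT or mutant Ring1B alters that response.

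Wnt proteins are lipid-modified ligands that bind Frizzled receptors together with an Lrp5 or Lrp6 co-receptor. Binding keeps the destruction complex from degrading beta-catenin, which then enters the nucleus and acts with TCF and LEF factors on target genes, while other Wnt proteins signal through routes that do not need beta-catenin. Secreted inhibitors act at 2 points: the Sfrp proteins, Frzb and Wif1 bind Wnt ligands, and Dkk proteins bind the co-receptors. In mouse ESCs, Wnt signalling favours self-renewal, and in the embryo it is needed for the primitive streak. Ring1A and Ring1B are the E3 ligases of PRC1, which mono-ubiquitinates histone H2A and keeps many developmental genes silent, mostly at promoters rich in CpG.

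The 3 genes on which the results turn were *Wnt11*, *Sfrp2* and *Fzd5*. Their promoters are shown because PRC1 targets mostly have promoters rich in CpG, a feature that many other promoters share and that does not mark a gene as a target. Each sequence is the 250 bases before a start site of the gene in the RefSeq table for GRCm38.p6, written on the strand of the gene, with every CpG in capitals. They lie at chr7:98834862-98835111 (plus strand, 37 CpG) for *Wnt11*, chr3:83766071-83766320 (plus strand, 16 CpG) for *Sfrp2* and chr1:64737751-64738000 (minus strand, 32 CpG) for *Fzd5*.
Wnt11: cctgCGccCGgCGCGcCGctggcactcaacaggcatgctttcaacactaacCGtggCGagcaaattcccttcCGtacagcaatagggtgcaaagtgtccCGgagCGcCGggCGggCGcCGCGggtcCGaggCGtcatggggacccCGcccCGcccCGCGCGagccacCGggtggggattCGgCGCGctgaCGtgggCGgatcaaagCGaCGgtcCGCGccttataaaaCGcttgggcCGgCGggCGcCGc
Sfrp2: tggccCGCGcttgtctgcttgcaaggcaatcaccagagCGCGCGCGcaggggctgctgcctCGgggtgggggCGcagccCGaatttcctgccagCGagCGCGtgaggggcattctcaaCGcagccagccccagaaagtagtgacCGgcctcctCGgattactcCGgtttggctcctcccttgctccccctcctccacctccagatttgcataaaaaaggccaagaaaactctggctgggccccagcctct
Fzd5: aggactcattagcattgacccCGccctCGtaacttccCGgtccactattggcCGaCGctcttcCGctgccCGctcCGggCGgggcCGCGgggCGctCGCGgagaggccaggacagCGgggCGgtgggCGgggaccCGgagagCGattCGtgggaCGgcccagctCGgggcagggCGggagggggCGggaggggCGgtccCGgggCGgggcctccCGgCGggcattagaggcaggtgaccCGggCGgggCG
CpG observed over expected was 1.18 in this window of *Wnt11*, whose signal rose, 0.91 in that of *Fzd5*, whose signal fell, and 0.64 in that of *Sfrp2*. The table gives *Wnt11* a second start site, whose 250 bases at chr7:98838595-98838844 hold 16 CpG with a value of 0.81. The table held 27 of the 40 genes with 30 promoters of 300 bases (250 before and 50 after the start). In 26 of these 30 promoters (86.7%) at least 10 CpG were found, against 56.8% of the 21263 promoters of protein-coding genes, and the median CpG observed over expected was 0.75 against 0.57. The letters CTTTGAT or CTTTGAA, which TCF and LEF factors are known to bind, were in 3 of the 30 promoters on either strand (*Dkk1*, *Wnt11* and *Wnt5b*), against 7.57% of all promoters. The match in *Wnt11* is on the opposite strand of the window shown, read above as atcaaag, and the second start site had none. These are descriptions of sequence, and no binding was measured on these arrays.

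After OHT, 3 of the 39 measured genes passed the test. *Wnt11* rose and *Fzd5* fell in both the mock line and the mutant lines, and *Sfrp2* rose in the mutant lines. The calls were made with limma across all 16432 genes with the line as a block, at a Benjamini-Hochberg adjusted p under 0.05. In the mock line 1 gene rose (background over all genes 1.29%) and 1 fell (0.383%), and in the mutant lines 2 rose (4.91%) and 1 fell (1.55%). None passed in the WT lines, where 0% of all genes passed; at an unadjusted p under 0.05 there were 3 of the 39 and 1250 of all genes. With so few calls, the share of these genes called was near the background in each direction. The p-values measure the spread between these lines, and the mock line, being 1 line, borrows the spread of the others. With any 1 other line left out, none of all genes was called in the mock line. Without any 1 mutant line, 144 to 168 of all genes were called higher in the mutant lines and 9 to 26 lower. Calls described below as lost without a line were lost in these same runs. In these bulk RNA samples, a change in the number of cells of a type and a change in RNA per cell cannot be told apart.

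**Figure D1:**
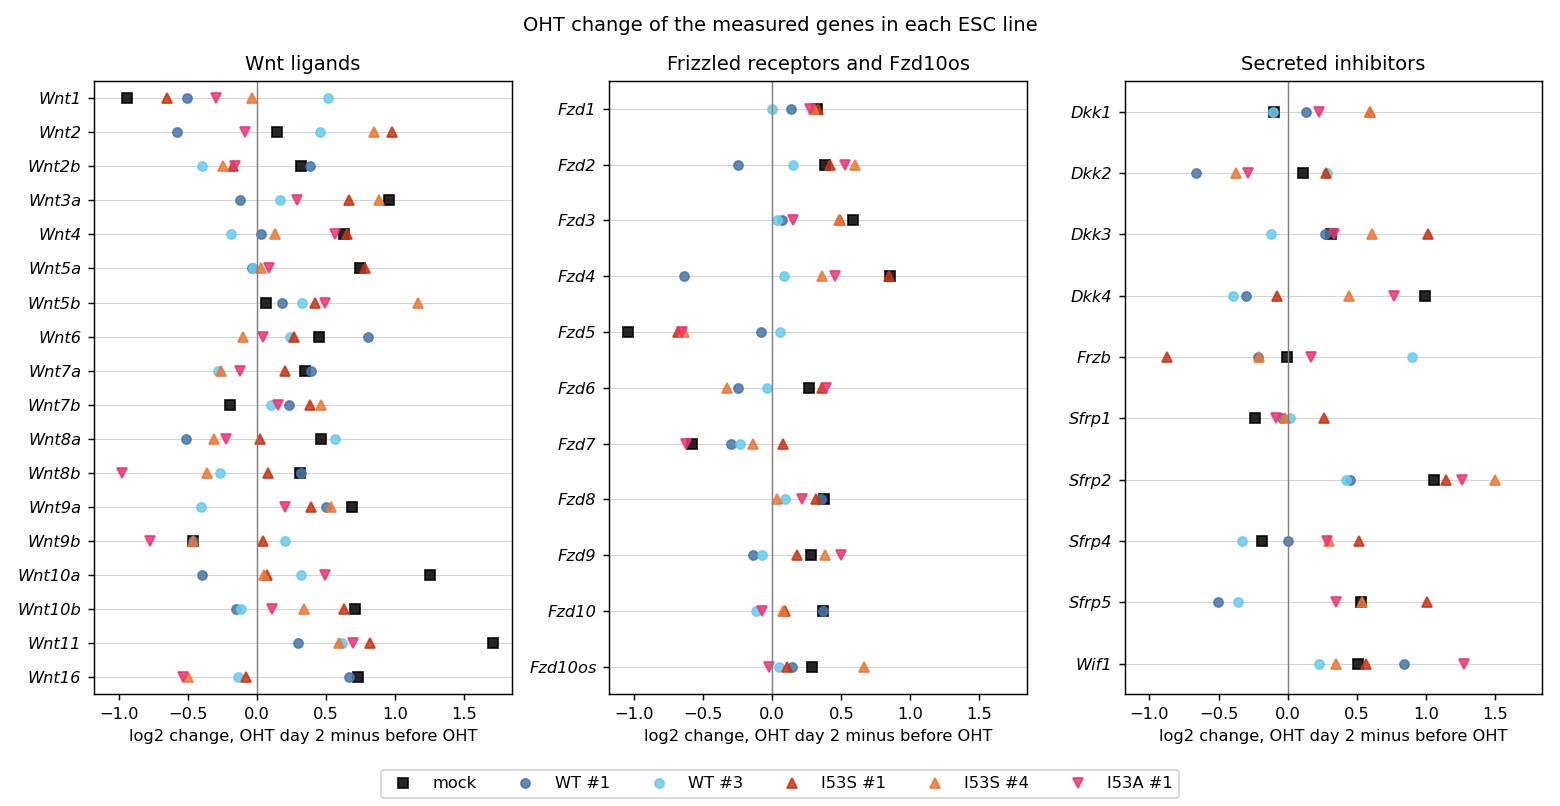
Log2 change (day 2 of OHT minus before OHT, quantile-normalized signal) of the 39 measured genes in each of the 6 ESC lines, with 1 point per line: black squares for mock, blue circles for WT, red to pink triangles for mutant lines. *Wnt11* in the mock line is farthest to the right at 1.71, and the 3 mutant lines of *Fzd5* lie together between -0.69 and -0.64, left of both WT lines.

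*Wnt11*, a ligand known mainly for signalling without beta-catenin and for its part in gastrulation movements, showed the largest change of any of the 39 genes in the mock line. Its log2 signal went from 4.71 to 6.42 in the mock line. With WT Ring1B it went from 4.95 to 5.25 (#1) and from 5.27 to 5.88 (#3). In the mutant lines it went from 5.41 to 6.22 (I53S #1), from 5.51 to 6.10 (I53S #4) and from 5.67 to 6.37 (I53A). All 6 lines were thus higher after OHT, the mock line by more than any other, and the I53S #4 line (0.59) lay within the WT lines (0.30 and 0.61). The change was 1.71 ± 0.18 (SE, n = 1 line) in the mock line, a 3.27-fold rise with a limma adjusted p of 0.0329. In the mutant lines it was 0.70 ± 0.10 (SE, n = 3 lines), with a limma adjusted p of 0.0214. In the WT lines it was 0.46 ± 0.13 (SE, n = 2 lines; limma adjusted p = 0.562). The difference between mutant and WT lines was 0.24 (95% interval -0.16 to 0.65, limma adjusted p = 0.608), and that between mock and WT lines 1.25 (0.70 to 1.80, limma adjusted p = 0.144). *Wnt11* is represented by 1 probe set. Before OHT its level was 0.42 higher in the mutant than in the WT lines, at an unadjusted p of 0.0491 and an adjusted p of 0.95 in limma. The mock call was lost without any 1 of the other 5 lines (limma adjusted p 0.0634 to 0.083), and the mutant call without any 1 mutant line (0.0858 to 0.113), but not without either WT line (0.0357).

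*Fzd5*, a Frizzled receptor with a bright signal in these ESCs, was the only one of the 39 genes whose change was below both WT lines in each mutant line (2.56%, against 15% of all genes). That count was 5 without I53S #1 (20.9% of all genes), and 3 both with the values as deposited (25.6%) and after centring (14.4%). Its log2 signal fell from 8.86 to 7.82 in the mock line. In the mutant lines it went from 8.65 to 7.96 (I53S #1), from 8.94 to 8.30 (I53S #4) and from 9.06 to 8.40 (I53A). In the WT lines it went from 8.66 to 8.57 (#1) and from 8.80 to 8.85 (#3). The changes of the WT lines (-0.08 and 0.05) and of the other 4 lines (-1.04 to -0.64) did not overlap. The change was -1.04 ± 0.15 (SE, n = 1 line) in the mock line, to 0.485 of the level before OHT, with a limma adjusted p of 0.043. In the mutant lines it was -0.66 ± 0.09 (SE, n = 3 lines; limma adjusted p = 0.0153), and in the WT lines -0.02 ± 0.10 (SE, n = 2 lines; limma adjusted p = 0.989). The differences themselves did not pass: mutant minus WT was -0.64 (95% interval -0.98 to -0.31, limma adjusted p = 0.182) and mock minus WT was -1.03 (-1.47 to -0.58, limma adjusted p = 0.144). Its probe sets gave like values, with means of -0.71 and -0.61 in the mutant lines and -1.10 and -0.99 in the mock line. Without any 1 mutant line the call in the mutant lines was lost (limma adjusted p 0.0808 to 0.0861), and without any 1 of the other 5 lines so was that in the mock line (0.0834 to 0.091).

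*Sfrp2*, a secreted Frizzled-related protein, had the largest change in the mutant lines among the 39 genes. Its levels before OHT lay close together in all 6 lines, between 6.82 and 7.05 on the log2 scale. On day 2 the mock line stood at 8.11, WT #1 and #3 at 7.28 and 7.39, and I53S #1, I53S #4 and I53A at 8.08, 8.43 and 8.30. Every line was higher after OHT, and the mock and mutant lines (1.06 to 1.50) lay above both WT lines (0.45 and 0.42). The change in the mutant lines was 1.30 ± 0.10 (SE, n = 3 lines), a 2.47-fold rise with a limma adjusted p of 0.00617. It was 1.06 ± 0.18 (SE, n = 1 line; limma adjusted p = 0.0564) in the mock line and 0.44 ± 0.12 (SE, n = 2 lines; limma adjusted p = 0.563) in the WT lines. The mutant lines exceeded the WT lines by 0.87 (95% interval 0.47 to 1.26, limma adjusted p = 0.151). The call in the mutant lines was kept in every alternative run, leaving out any 1 line included. *Sfrp2* has 1 probe set.

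**Figure D2:**
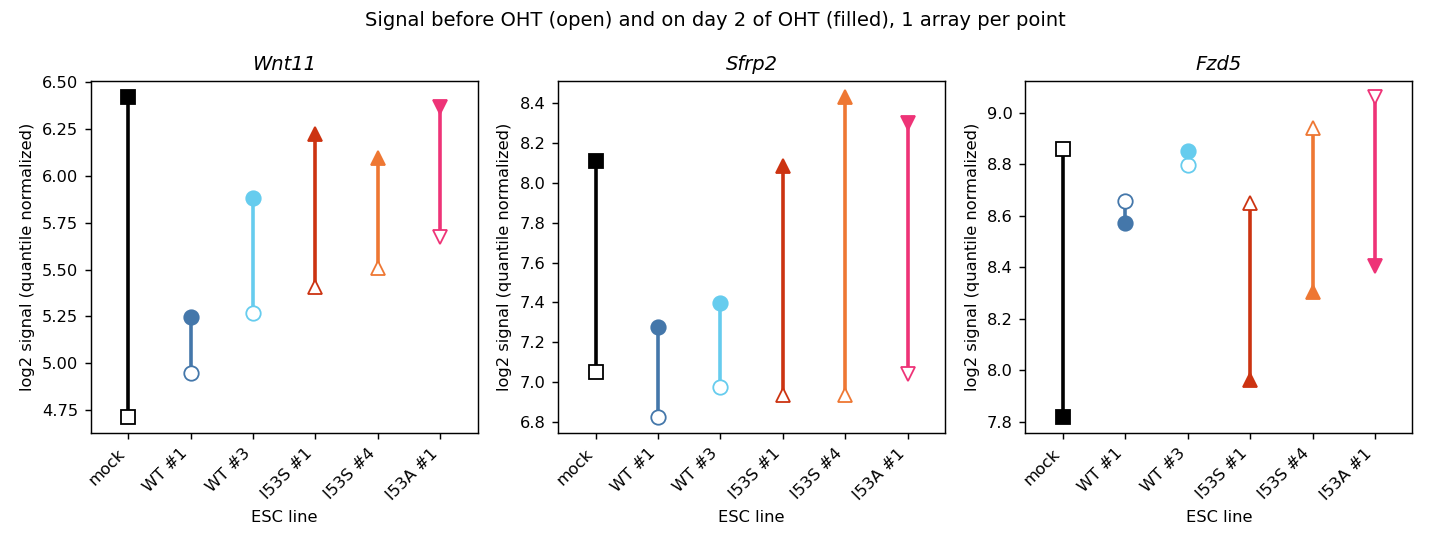
Quantile-normalized log2 signal of *Wnt11*, *Sfrp2* and *Fzd5* in each ESC line before OHT (open symbols) and on day 2 of OHT (filled symbols), with 1 array per point and a line joining the 2 arrays of a cell line; the axes do not start at 0. *Sfrp2* starts between 6.82 and 7.05 in every line and ends at or above 8.08 outside the WT lines, while *Fzd5* ends at or below 8.40 in the mock and mutant lines and at 8.57 and 8.85 in the WT lines.

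Fibroblast markers moved with some of these changes. Of 22 measured markers, 21 had a change above 0 in the mock line and in I53S #1, with median changes of 0.65 and 0.56, against -0.02 and 0.05 in the WT lines, 0.20 in I53S #4 and 0.16 in I53A. Their summed linear signal went from 7102 to 10106 in the mock line and from 7082 to 10764 in I53S #1, and from 6252 to 6926 in I53S #4. It went from 4063 to 4057 and from 4254 to 4505 in the WT lines. *Thy1*, a surface marker of fibroblasts, rose by 1.32 in the mock line (limma adjusted p = 0.0366) and by 0.68 in the mutant lines (limma adjusted p = 0.0186), and both calls were lost without any 1 of the lines they rest on (0.0723 to 0.0834 and 0.0891 to 0.0974). It was the only fibroblast marker called. In the I53A line the summed signal was 4120 before and 4100 after OHT, and there *Thy1* changed by 0.75, *Sfrp2* by 1.26, *Wnt11* by 0.70 and *Fzd5* by -0.66. The part of these cells in the changes of any of the 39 genes was not tested. Markers of undifferentiated ESCs stayed bright, with a median level of the 15 markers at or above 11.29 on all arrays, and their median change was between -0.23 and 0.06. Of these, *Nr0b1* fell in the mock and mutant lines (by 1.49 and 1.32; limma adjusted p = 0.0329 and 0.0055) and *Klf4* rose in the mutant lines (0.55, limma adjusted p = 0.0354). The mock call of *Nr0b1* was lost without any 1 other line and the call of *Klf4* without any 1 WT or mutant line (limma adjusted p 0.0634 to 0.0823 and 0.0669 to 0.146).

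Some markers of other embryonic lineages passed the test. Over all genes, 1.29% rose in the mock line, and 4.91% rose and 1.55% fell in the mutant lines. Of 9 markers of neural progenitors, 2 rose in the mock line, and 3 rose and 1 fell in the mutant lines. *Zic1*, which the study names as an H2AK119u1 target, changed by 2.53 in the mutant lines (limma adjusted p = 0.00458), from dim levels before OHT (3.11 to 3.77). *Otx2* fell by 0.62 in the mutant lines (limma adjusted p = 0.0209). The summed linear signal of these 9 fell in every line, WT lines included, for I53S #1 from 1572 to 1118. Of 13 markers of primitive endoderm, 4 rose in the mock line and 3 in the mutant lines, with *Amn* at 1.88 in the mutant lines (limma adjusted p = 0.00617). Of 9 of the primitive streak, 1 rose in the mock line and 3 in the mutant lines, with *Gsc* at 1.37 (limma adjusted p = 0.0111). These lists share genes. The 1 called in the mock line was *Foxa2*, already counted among the markers of primitive endoderm. *Eomes*, called in the mutant lines, is counted both here and among the markers of the trophectoderm. Of 8 of the trophectoderm, 0 passed in the mock line and 4 rose in the mutant lines, with *Gata3* at 1.72 (limma adjusted p = 0.0137). *Gata3* was also higher after OHT where WT Ring1B was expressed, by 0.77 (#1) and 1.35 (#3). The value of WT #3 exceeded that of I53A (1.29), so that mutant and WT changes of *Gata3* overlapped. *Zic1* and *Amn* kept these calls in every alternative, while *Gsc* and *Gata3* lost theirs without either I53S line (0.0751 and 0.0719, 0.08 and 0.0558). Their part in the changes of the Wnt genes was not tested.

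Taken as a group, more of the 39 genes lay above 0 than below in the mock line (30 of 39, median 0.35) and in the mutant lines (28 of 39, median 0.30), and in the WT lines 21 of 39 did (median 0.02). Over all genes 50.5%, 48.9% and 51% lay above 0, with medians between -0.01 and 0.00. This direction rests on the scaling in the mock line: with the values as deposited 18 of 38 were above 0 there (median -0.01), when the median of all genes was itself -0.34. In the mutant lines those values gave 24 of 38 (median 0.15, all genes -0.13). Relative to all genes the shift was therefore of like size under both scalings. As deposited, 175 of all genes were called higher and 747 lower in the mock line, against 212 and 63 after quantile normalization, and in the mutant lines 540 and 571 against 807 and 255.

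In 16 of the 39 genes (41%) the change in each mutant line was above that in both WT lines, against 16.1% of all genes. These were *Wnt3a*, *Wnt4*, *Wnt5a*, *Wnt5b* and *Wnt10b* among the ligands, *Fzd1*, *Fzd2*, *Fzd3*, *Fzd4* and *Fzd9* among the receptors, and *Dkk1*, *Dkk3*, *Dkk4*, *Sfrp2*, *Sfrp4* and *Sfrp5* among the inhibitors. Leaving out a mutant line can only add genes to this count, so that it cannot show whether the 16 depend on that line. Without I53S #1, the mutant line whose fibroblast markers changed the most, no gene was added to the 16. The share of all genes was then 21.9%. With the values as deposited it was 10 of 38 genes against 8.64%. No difference between mutant and WT lines passed for any of the 39 genes (background 0%; in limma, 12 of the 39 and 2066 of all genes were under 0.05 before adjustment). The same held for mock minus WT lines (0%; 10 and 2360) and for mock minus mutant lines (0%; 5 and 1322).

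By the study's own threshold for derepression, a log2 ratio over 0.5, 14 of the 39 genes were past it in the mock line (all genes 14.6%), 13 in I53S #1 (11.7%), 11 in I53S #4 (10.7%) and 6 in I53A (12%). In the WT lines there were 3 in #1 (7.17%) and 4 in #3 (6.06%). Under -0.5 there were 3 in the mock line (10.5%), 3 in I53S #1 (7.94%), 2 in I53S #4 (6.3%), 5 in I53A (7.39%), 6 in WT #1 (6.5%) and 0 in WT #3 (4.87%). The I53A line thus had fewer of these genes over 0.5 than the I53S lines. Past 0.5 in the mock line and in each mutant line were *Sfrp2* and *Wnt11* alone (5.13%, all genes 3.32%), and under -0.5 in all of these lines *Fzd5* alone (2.56%, all genes 0.542%). Counting by sign only, 18 genes (46.2%, all genes 19.6%) were above 0 in the mock line and each mutant line, and *Fzd5* and *Wnt1* (5.13%, all genes 17.8%) were below 0 in each of them.

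**Figure D3:**
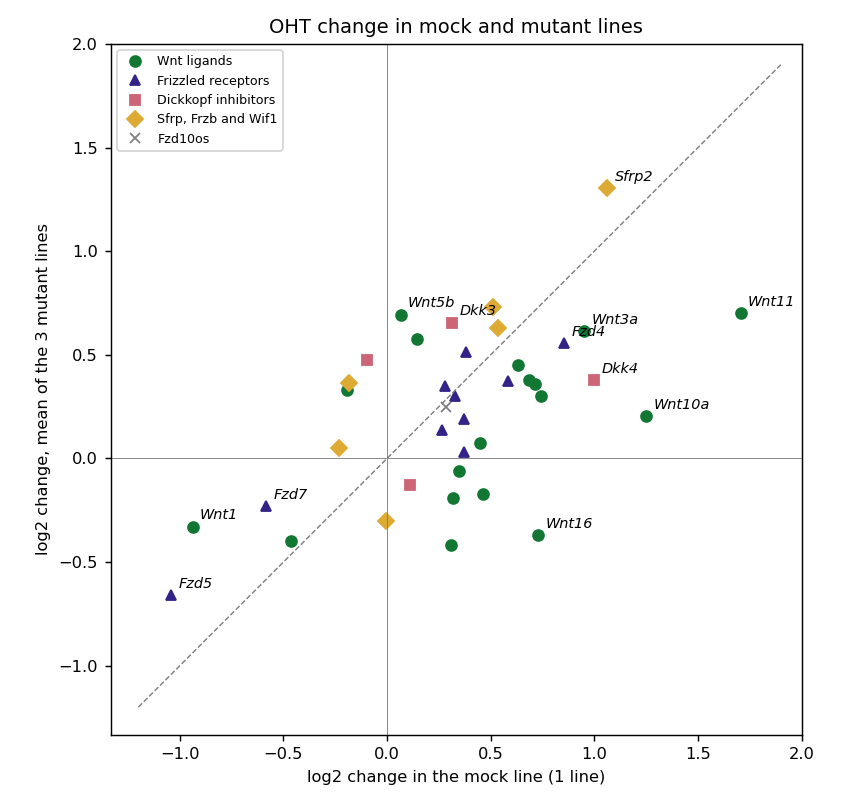
Log2 change in the mock line (x axis, 1 line) against the mean of the 3 mutant lines (y axis) for the 39 measured genes, by gene group, with the dashed line where both are equal. *Sfrp2* lies above that line, and *Wnt11*, *Wnt10a* and *Wnt16* lie well below it, with mock changes of 1.71, 1.25 and 0.73.

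Among the 18 measured ligands, the median change was 0.46 in the mock line, 0.25 in the mutant lines and 0.02 in the WT lines. *Wnt3a*, a ligand that acts through beta-catenin and is needed for posterior mesoderm, changed by 0.95 in the mock line and by 0.67, 0.88 and 0.29 in I53S #1, I53S #4 and I53A, against -0.13 and 0.17 in the WT lines. All 4 of those lines lay above both WT lines, and the change in the mutant lines missed the threshold (0.61 ± 0.14, SE, n = 3 lines; limma adjusted p = 0.0634). Its neighbour *Wnt9a*, whose gene lies 16.1 kb away, changed by 0.69 in the mock line, by 0.50 and -0.40 in the WT lines and by 0.39, 0.54 and 0.21 in the mutant lines, so that its groups overlapped. The 2 probe sets of *Wnt9a* disagreed, the brighter one with a mean of 1.07 in the mutant lines and the dimmer one with -0.31.

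*Wnt10a* changed by 1.25 in the mock line, but by 0.07, 0.05 and 0.49 in the mutant lines and by -0.40 and 0.32 in the WT lines (limma adjusted p = 0.103 for mock). Before OHT its level was lowest in the mock line at 4.03 and between 4.89 and 5.92 in the others, and after OHT the mock line (5.28) lay among them. *Wnt6*, whose gene lies 6.7 kb from *Wnt10a*, had its highest change in WT #1 (0.80) and 0.45 in the mock line. *Wnt10b* and *Wnt1*, 11.7 kb apart, had changes of opposite sign in these lines: *Wnt10b* changed by 0.71 in the mock line and 0.63, 0.34 and 0.11 in the mutant lines, and *Wnt1* by -0.94 in the mock line and -0.65, -0.03 and -0.30 in the mutant lines. Neither passed the test (limma adjusted p for mock 0.152 and 0.249), and *Wnt1* was above the filter value on only some of the arrays. *Wnt9b* overlaps *Wnt3*, which was not measured, by the extents of the genes in RefSeq, although the promoters listed for them lie apart. *Wnt9b* changed by -0.46 in the mock line and in WT #1 alike.

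*Wnt5a*, a ligand of the route without beta-catenin that fibroblasts also express, changed by 0.74 in the mock line and 0.78 in I53S #1, but by 0.03 in I53S #4 and 0.09 in I53A and by -0.04 and -0.03 in the WT lines. The high averaged values were in the same 2 lines in which the fibroblast markers had their largest changes, and a link was not tested. The brightest of its probe sets differed from the mean, with 1.18, 0.62 and 0.53 in the 3 mutant lines. With that probe set alone *Wnt5a* passed the test in the mutant lines (limma adjusted p = 0.0407). *Wnt5b* changed most in I53S #4 (1.17), with 0.42 and 0.49 in the other mutant lines and 0.07 in the mock line, at signals near the filter value. *Wnt4* changed by 0.63 in the mock line and by 0.65, 0.13 and 0.56 in the mutant lines. The changes of *Wnt2*, *Wnt2b*, *Wnt7a*, *Wnt7b*, *Wnt8a*, *Wnt8b* and *Wnt16* in the mutant lines ranged from -0.98 (*Wnt8b*, I53A) to 0.98 (*Wnt2*, I53S #1), and none of them kept the mutant lines apart from the WT lines.

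Of the 10 Frizzled receptors, 8 lay above 0 in the mock line and in the mutant lines, *Fzd5* and *Fzd7* being the others, with medians of 0.35 and 0.25 against -0.03 in the WT lines. With the values as deposited, 5 of the 10 in the mock line and 7 of the 10 in the mutant lines lay above 0. *Fzd2* changed by 0.38 in the mock line, by -0.25 and 0.15 in the WT lines and by 0.42, 0.60 and 0.52 in the mutant lines, with the mutant mean at 0.51 ± 0.11 (SE, n = 3 lines; limma adjusted p = 0.0555). *Fzd4*, which is also the receptor of Norrin, changed by 0.85 in the mock line and 0.85, 0.36 and 0.46 in the mutant lines, against -0.64 and 0.09 in the WT lines. *Fzd1*, *Fzd3* and *Fzd9* had smaller changes, with means of 0.30, 0.37 and 0.35 in the mutant lines, all above the WT lines. The brightest of the probe sets of *Fzd3* alone gave 0.71, and with that probe set *Fzd3* passed the test (limma adjusted p = 0.0144).

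*Fzd7*, a receptor known for its role in ESC self-renewal, had 2 probe sets that disagreed. The brighter, with a mean log2 signal of 9.33, changed by -0.70 in the mock line, by -0.48, -0.45 and -0.47 in the mutant lines and by -0.26 and -0.06 in the WT lines. The dimmer, at 4.77, changed by -0.47 in the mock line and by 0.63, 0.17 and -0.77 in the mutant lines. Averaged, the gene did not pass, and with the brighter probe set alone it fell in the mutant lines (limma adjusted p = 0.0392). *Fzd6*, *Fzd8* and *Fzd10* overlapped the WT lines. *Fzd10os* changed by 0.67 in I53S #4 and by 0.29 or less in the other 5 lines, and the array values cannot tell whether its signal is apart from that of *Fzd10*, 0.4 kb away.

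Among the inhibitors, the 6 genes *Sfrp1*, *Sfrp2*, *Sfrp4*, *Sfrp5*, *Frzb* and *Wif1* had a median change of 0.50 in the mutant lines, against 0.25 for mock and 0.17 for WT. *Sfrp5* changed by 0.53 in the mock line and 1.01, 0.54 and 0.35 in the mutant lines, against -0.51 and -0.36 in the WT lines. Its groups did not overlap, and it missed the threshold in the mutant lines (0.63 ± 0.14, SE, n = 3 lines; limma adjusted p = 0.0638). *Sfrp4* lay above the WT lines in each mutant line (0.51, 0.30 and 0.28), but not in the mock line (-0.18). *Sfrp1*, with 5 probe sets and levels before OHT between 7.84 and 8.49, changed by -0.23 in the mock line and between -0.09 and 0.27 in the other lines. *Wif1* was above 0 in all lines (0.23 to 1.27) at levels before OHT of 2.81 to 3.09, below the filter value, and *Frzb* ranged from -0.87 (I53S #1) to 0.90 (WT #3).

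The 4 Dickkopf genes had a median of 0.43 over the mutant lines, 0.21 for mock and -0.09 for WT. *Dkk1*, an inhibitor that binds Lrp6 and is itself a target of Wnt signalling, changed by 0.60, 0.60 and 0.23 in the mutant lines, but by -0.10 in the mock line, 0.13 in WT #1 and -0.10 in WT #3. *Dkk3*, a divergent member of the family, changed by 1.02, 0.61 and 0.34 in the mutant lines, by 0.31 with the empty vector and by 0.27 and -0.12 with WT Ring1B. *Dkk4* changed by 1.00 in the mock line and -0.08, 0.44 and 0.77 in the mutant lines, at levels before OHT of 3.09 to 3.54, and *Dkk2* overlapped the WT lines. None passed in limma, *Dkk3* and *Dkk1* being nearest in the mutant lines (adjusted p = 0.0706 and 0.075).

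Before OHT, none of the 39 genes differed between the mutant and the WT lines (limma, background 0%; 2 of the 39 and 862 of all genes at an unadjusted p under 0.05). The 2 were *Wnt11*, described above, and *Wnt16*, which was 0.74 higher in the mutant lines (95% interval 0.06 to 1.41, limma adjusted p = 0.945). The 26 genes above the filter value on every array include all Frizzled receptors. The 13 that were above it on some arrays only are *Wnt1*, *Wnt2*, *Wnt2b*, *Wnt5b*, *Wnt8a*, *Wnt8b*, *Wnt9b*, *Wnt16*, *Dkk1*, *Dkk2*, *Dkk4*, *Frzb* and *Wif1*, and their changes are of dim signals. *Dkk4* was above it only in the mock line after OHT (4.09), and *Wif1* only in I53A after OHT (4.14). Both thus entered the counts of the 39 genes through an array where they were high.

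The other genes of the pathway were taken as 3 lists. For these, the shares called over all genes were 1.29% higher and 0.383% lower in the mock line, and 4.91% and 1.55% in the mutant lines. Of the genes for co-receptors, Wnt secretion and R-spondin signalling, 28 of 31 were measured and *Rspo1* and *Wls* rose in both the mock and the mutant lines. *Rspo1*, a secreted protein that strengthens Wnt signalling, changed by 1.24 in the mock line, by 0.35 and 0.37 in the WT lines and by 1.59, 1.65 and 1.32 in the mutant lines. Its mutant and mock lines lay above both WT lines, with a mean of 1.52 ± 0.10 (SE, n = 3 lines; limma adjusted p = 0.0055) in the mutant lines and a limma adjusted p of 0.0417 in the mock line. *Wls*, which carries Wnt ligands to the cell surface, changed by 1.14 in the mock line, by 0.09 and 0.27 in the WT lines and by 0.88, 0.70 and 0.84 in the mutant lines (limma adjusted p = 0.043 and 0.012 for mock and mutant). With the filter on the mean signal its change in the mock line was 0.74. The median of the list was 0.20 in the mock line and 0.15 in the mutant lines. The mock calls were lost without any 1 other line (limma adjusted p 0.0749 to 0.0878 for *Rspo1* and 0.0808 to 0.0897 for *Wls*), as was that of *Wls* in the mutant lines without any 1 of these (0.0602 to 0.0751).

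Of 38 genes of intracellular transduction, 37 were measured. None passed in the mock line, and in the mutant lines 3 rose and 1 fell: *Tle2*, a co-repressor, by 1.31 (limma adjusted p = 0.0177), *Nkd1*, which inhibits Dishevelled, by 0.78 (0.0453), *Prickle2*, of the planar cell polarity route, by 0.70 (0.0171), and *Lef1* by -0.72 (0.0429). The median of this list was 0.15 for mock and 0.05 for mutant lines. *Ctnnb1*, which encodes beta-catenin, changed by 0.15 ± 0.16 (SE, n = 1 line) in the mock line, and its change in the mutant lines differed from that in the WT lines by -0.03 ± 0.15 (SE; limma adjusted p = 0.965). *Nkd1* was not called with its brightest probe set (0.26, limma adjusted p = 0.676). Without any 1 mutant line *Tle2*, *Prickle2*, *Nkd1* and *Lef1* lost their calls (limma adjusted p from 0.0528 to 0.179), and *Nkd1* and *Lef1* did so without either WT line too (0.0817 and 0.0727).

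Of 25 genes listed as Wnt targets, 23 were measured, of which 8 rose (all genes 4.91%) and 2 fell (1.55%) in the mutant lines and 2 rose (1.29%) in the mock line. *T*, listed both as a Wnt target and as a marker of the primitive streak, was not found under that symbol. It is in neither count. With the values as deposited, 6 rose and 2 fell in the mutant lines, and 2 rose and 3 fell in the mock line. In the mutant lines 18 of the 23 lay above 0, and 14 with the values as deposited (median 0.11, all genes -0.13). After quantile normalization the median was 0.59 in the mock line, 0.34 in the mutant lines and 0.09 in the WT lines, where none passed. *Axin2*, a negative regulator used as a readout of Wnt signalling, changed by 1.22 in the mock line, by 0.15 and 0.36 in the WT lines and by 1.48, 0.74 and 0.96 in the mutant lines. It rose in the mutant lines (1.06 ± 0.16, SE, n = 3 lines; limma adjusted p = 0.021) and missed the threshold in the mock line (limma adjusted p = 0.0947). With no filter on its probe sets the change of *Axin2* was 0.54 in the mutant lines (limma adjusted p = 0.049) and 0.58 in the mock line. *Cdx1*, a homeobox gene of the posterior embryo, changed by 1.95 in the mock line and 1.15, 1.42 and 1.16 in the mutant lines, against 0.36 and -0.30 in the WT lines, and passed in both (limma adjusted p = 0.0391 and 0.0128). *Fgf8* rose by 1.48 in the mutant lines (limma adjusted p = 0.00617), from levels before OHT of 3.59 to 4.03, near the filter value. Its call was kept in each of the 12 alternative runs that measured it, and that of *Rspo1* in all 13. *Sp8* rose by 1.73 in the mock line and 0.80 in the mutant lines (limma adjusted p = 0.0366 and 0.0237). It also changed by 0.50 and 0.53 in the WT lines, both above I53A (0.48). *Id2*, *Nkd1*, *Sp5* and *Ascl2* rose in the mutant lines by 0.95, 0.78, 0.68 and 0.58. The change of *Id2* was 0.52 and 0.55 in the WT lines and 0.52 in I53A, so that its mutant and WT lines overlapped. Without any 1 mutant line the calls of *Axin2* (limma adjusted p 0.0607 to 0.0885), *Cdx1* (0.0682 to 0.0766), *Sp5* (0.0852 to 0.0978) and *Ascl2* (0.0799 to 0.132) were lost, and without either I53S line those of *Sp8* (0.116 and 0.119) and *Id2* (0.133 and 0.111). *Id2* and *Ascl2* also lost theirs without either WT line (0.053 and 0.0567), and both mock calls were lost without any 1 other line (0.0648 to 0.0834).

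The 2 target genes that fell were *Lef1* and *Myc*. *Lef1*, a nuclear partner of beta-catenin, changed by -1.32 in the mock line, by -0.42 and -0.64 in the WT lines and by -0.80, -0.36 and -0.98 in the mutant lines, so that the mutant and WT lines overlapped. *Myc* changed by -1.10 in the mock line, by 0.13 and 0.04 in the WT lines and by -0.59, -0.60 and -0.95 in the mutant lines (-0.71 ± 0.11, SE, n = 3 lines; limma adjusted p = 0.022), with no overlap. The call of *Myc* was lost without any 1 mutant line (0.0887, 0.088 and 0.0918 without I53S #1, I53S #4 and I53A). No gene of the 3 lists passed for mutant minus WT lines; that difference was 0.81 ± 0.25 for *Axin2* (SE; limma adjusted p = 0.28) and 1.16 ± 0.16 for *Rspo1* (SE; limma adjusted p = 0.114).

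**Figure D4:**
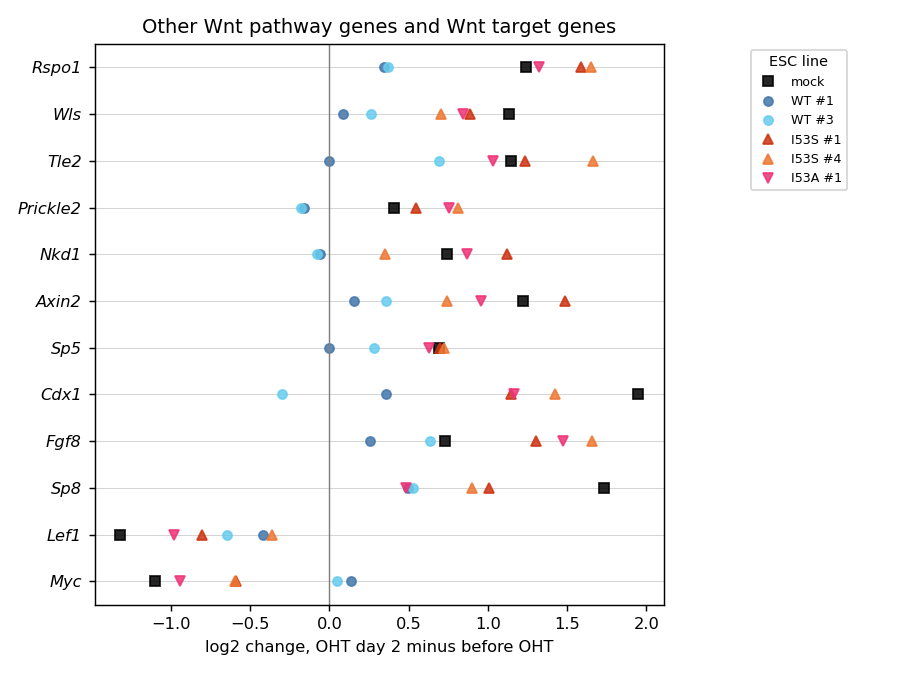
Log2 change (day 2 of OHT minus before OHT) of 12 other Wnt pathway genes and Wnt target genes in each ESC line, with 1 point per line. *Rspo1*, *Wls*, *Axin2* and *Cdx1* lie to the right of both WT lines in the mock line and in each mutant line, *Myc* lies to the left of them, and *Lef1* is below 0 in all 6 lines.

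*Rnf2*, the gene of Ring1B, changed by -0.26 in the mock line and between -0.29 and 0.20 in the other lines. The position of its probe sets against the deleted exons is not known here, and the values say nothing about the deletion.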

How the data were processed

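RNA of 6 ESC lines was measured with 1 array before and 1 array after OHT per line. The values deposited by the authors are log2 signals of probe sets. The processing notes name Affymetrix Expression Console and RMA, while MAS5 and quantile normalization appear in the methods. Because the deposited values had array medians from 4.66 to 5.69, they were quantile-normalized here, with the deposited values as an alternative. Of 45101 probe sets, 34945 had 1 gene symbol in the platform annotation, 932 several and 9160 none. Symbols were updated through RefSeq, in which 18033 were found and 162 were not. Probe sets with a highest signal over 3.94, which is percentile 30 of the values, were kept and averaged per gene, giving 16432 genes. Detection calls were not used, so a dim signal may be background, and precision is limited by how many arrays there are.

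All arrays were fitted in R 4.3.3 with limma 3.58.1 (statmod 1.5.0; two-sided; residual degrees of freedom 3, prior 2.79). Terms were the line, as a block, and the effect of OHT in mock, WT and mutant lines, and the Benjamini-Hochberg adjustment ran over all genes. Levels before OHT were fitted on 6 arrays without a block. Arrays are paired because they are of 1 cell line: deviations of the 2 arrays of a line correlated at 0.27 in the WT lines and 0.36 to 0.43 in the mutant lines. No 2 arrays were copies. The fit was tested on simulated data. Promoters were read from a RefSeq table for GRCm38.p6, and the figures were drawn with matplotlib 3.10.9.

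The genes and the pathway and marker lists were chosen with earlier results of these data known. Named are all of the 40 genes and, of each other pathway list, up to 4 called genes with the largest change, and *Axin2*. Of the marker lists only some of the called genes are named, and not always those with the largest change. In the mutant lines *Otx1*, at 2.00, changed more than *Otx2*, at -0.62. *Id2*, *Nkd1*, *Sp5*, *Ascl2*, *Lef1*, *Myc* and *Ctnnb1* were named after their values were seen. Alternatives were no block, the values as deposited, centring on medians, the probe set with the highest mean, no filter, filtering on mean signals (above the overall median), trended and robust priors, and each line left out. The counts of genes above both WT lines under other settings were added after the data were seen.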

Additional observations from a re-analysis of the deposited data

How the results depend on the processing

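No call on the 39 genes reversed its direction in any alternative, and none passed in the WT lines, before OHT or for mock minus mutant lines. Runs that altered only the block, the priors or the lines of other classes left the OHT change of a class as it was. Its direction could not reverse in those runs. The number called in the mock line, 2 in the report, was 0 without the replicate block, 1 with the brightest probe set of each gene, 6 of 26 genes measured with the filter on the mean and 4 with trended and robust priors. With 1 other line left out it was 0, and then none of all genes was called in the mock line either. The number called in the mutant lines, 3 in the report, was 1 without the replicate block, 5 with arrays centred on their medians, 9 with the brightest probe set, 12 of 26 with the filter on the mean and 7 with trended and robust priors. These counts include other genes. Over all genes the mutant lines then had 911 higher and 264 lower of 16432 with the brightest probe set, 1088 and 689 of 11677 with the filter on the mean and 1365 and 854 of 16432 with those priors, against 807 and 255, and the mock line had 555 and 328 with the filter on the mean and 814 and 526 with those priors, against 212 and 63. With 1 line left out the number called in the mutant lines was 1 to 3, the 1 being *Sfrp2* when any mutant line was left out. Over all genes the mutant lines then had 145 higher and 16 lower without I53S #1, 168 and 26 without I53S #4, and 144 and 9 without I53A. Most calls over all genes were thus lost in these runs too. Without the block, *Fzd5* and *Wnt11* had limma adjusted p of 0.0638 and 0.072 in the mutant lines and of 0.174 and 0.0516 in the mock line, and *Fzd5* was also lost in the mock line after centring (0.0522) and with its brightest probe set (0.056). Trended and robust priors called *Fzd5* for mock minus WT lines (1 gene, limma adjusted p = 0.00657) and *Fzd5* and *Sfrp2* for mutant minus WT lines (2 genes, 0.0193 and 0.0185). Over all genes those priors called 276 higher and 177 lower for mock minus WT lines and 194 and 78 for mutant minus WT lines, where the common prior called 0. Without the block 87 and 10 of all genes were called in the mock line and 486 and 77 in the mutant lines. Of the other pathway genes, *Rspo1* and *Fgf8* in the mutant lines kept their calls in every alternative that measured them (13 and 12), and each of the others named lost its call without some line. *Lef1*, *Myc*, *Sp5*, *Id2*, *Wls*, *Ascl2* and *Prickle2* also lost theirs in the mutant lines without the block (limma adjusted p = 0.492, 0.39, 0.114, 0.119, 0.176, 0.268 and 0.0595), as did *Cdx1* and *Wls* in the mock line (0.131 and 0.388). The cause of these shifts was not tested, and the filter on the mean leaves fewer genes to test (11677).

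The number of genes whose mutant lines were each above both WT lines was 10 of 38 with the values as deposited (all genes 8.64%). It was 15 of 39 after centring (15.1%) and 17 of 39 with the brightest probe set (17.2%). With no filter it was 14 of 40 (15.4%), and with the filter on the mean 14 of 26 (17%). The number with each mutant line below both WT lines was 5 of 39 without I53S #1 (all genes 20.9%) and 3 of 38 with the values as deposited (25.6%). It was 3 of 39 after centring (14.4%), 2 of 39 with the brightest probe set (13.8%) and 2 of 26 with the filter on the mean (17.4%). The counts past a log2 change of 0.5 moved most with the values as deposited: over 0.5 they were 5 in the mock line, 5 in WT #1, 2 in WT #3, 4 in I53S #4 and 3 in I53A, and under -0.5 they were 7 in the mock line, 2 in WT #1 and 8 in I53S #4, of 38 genes. The shares of all genes under that setting were 5.62%, 7.82%, 4.4%, 6.16% and 8.75% over 0.5, and 33.2%, 4.36% and 15.5% under -0.5. Centring gave 3 of 39 under -0.5 in WT #1. The brightest probe set gave 20 over 0.5 in I53S #1 (all genes 13.3%) and 11 in I53A (13.8%), and 2 under -0.5 in WT #3 (5.5%), of 39 genes. The filter on the mean gave, of 26 genes, 1 over 0.5 in WT #3 (3.43%), and under -0.5 it gave 3 in WT #1 (2.84%), 1 in WT #3 (2.21%), 1 in I53S #1 (6.13%), 1 in I53S #4 (4.51%) and 2 in I53A (5.67%).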
